A study of Mus musculus with 16 samples.

Results

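The chromatin of 9 genes of the insulin and FOXO pathway was followed across mouse tissues and feeding states: the transcription factor genes Foxo1, Foxo3, Foxo4 and Foxo6, the receptor and adaptor genes Insr, Irs1 and Irs2, and the target genes Igfbp1 and Pdk4. The 9 were taken by name from the 21938 protein-coding genes of the GENCODE vM21 annotation (GRCm38). ATAC-seq, which cuts open DNA with a transposase, had been run on 8 tissues (kidney, heart, liver, spleen, lung, muscle and both white and brown adipose) of male C57BL/6 mice that either ate chow freely (fed) or had food withheld for 24 h (fasting). Each tissue and state gave 1 library, 16 in all, made from tissue powder pooled in equal amounts from 3 mice acquired at 12 weeks, and the 8 tissues of a state came from the same mice. There was thus no replicate within a group, and every p-value below measures the spread between tissues, not between mice. All groups shared strain and sex, and a whole tissue holds many cell types, so a larger share of cells with an open site and a more open site per cell cannot be told apart.

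Insulin binds its receptor, encoded by Insr, which phosphorylates the adaptor proteins encoded by Irs1 and Irs2 and so activates PI3 kinase and AKT. AKT phosphorylates FOXO factors and keeps them out of the nucleus, and in fasting, when insulin is low, FOXO factors enter the nucleus and raise genes such as Igfbp1, which encodes a secreted binder of insulin-like growth factors, and Pdk4, which encodes a kinase that shuts the pyruvate dehydrogenase complex and spares glucose. FOXO factors bind the core GTAAACA, and CAAAACA is the core of insulin response sequences.

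The deposited lists held 298996 to 299529 rows per library, with between 149835 and 239804 distinct open regions, each with a summit. The lists ended at different strengths, with the weakest −log10 q between 0.649 in fasting and 5.26 in fed brown adipose. A site can thus be missing from 1 list at a strength that another list still held. The strength of a region was given as its percentile within its library, ranked by the deposited −log10 p, with 100 for the strongest and 0 where no region was listed. A gene's promoter value was the highest percentile of any region with its summit within 3 kb of a start, and its locus was the gene body with 20 kb on both sides. The background expected per site, a measure of depth, ranged from 2.80 tags in fed liver to 12.8 in fed brown adipose, and was larger in fasting in 4 of 8 tissues. Lists of 5 marker genes per tissue had the highest mean promoter percentile in their own tissue for 7 of 8 tissues. The exception was white adipose, whose list averaged 90.1 in white adipose and 92.2 in brown adipose, and what this adds to the results on white adipose was not tested.

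The promoters of Foxo1, Foxo3, Foxo4, Foxo6, Insr and Irs2 lay above percentile 90 of all open regions in all 16 libraries. Such values are common among promoters. The medians of these genes ran from 95.1 (Foxo4) to 97.6 (Insr), and the median over all protein-coding genes with a region was 94.7. Irs1 stayed at or above 88.04. Only Igfbp1 and Pdk4 ranged over more than 20 points, Igfbp1 with high values in liver and kidney alone and Pdk4 with low values in spleen alone. Of all protein-coding genes, 32.4% passed 90 in all 16 libraries and 40.8% ranged over more than 20 points. A promoter region was listed in all 16 libraries for 8 of the 9 genes, against 61.3% of protein-coding genes, and Igfbp1 lacked one in fasting muscle.

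**Figure D1:**
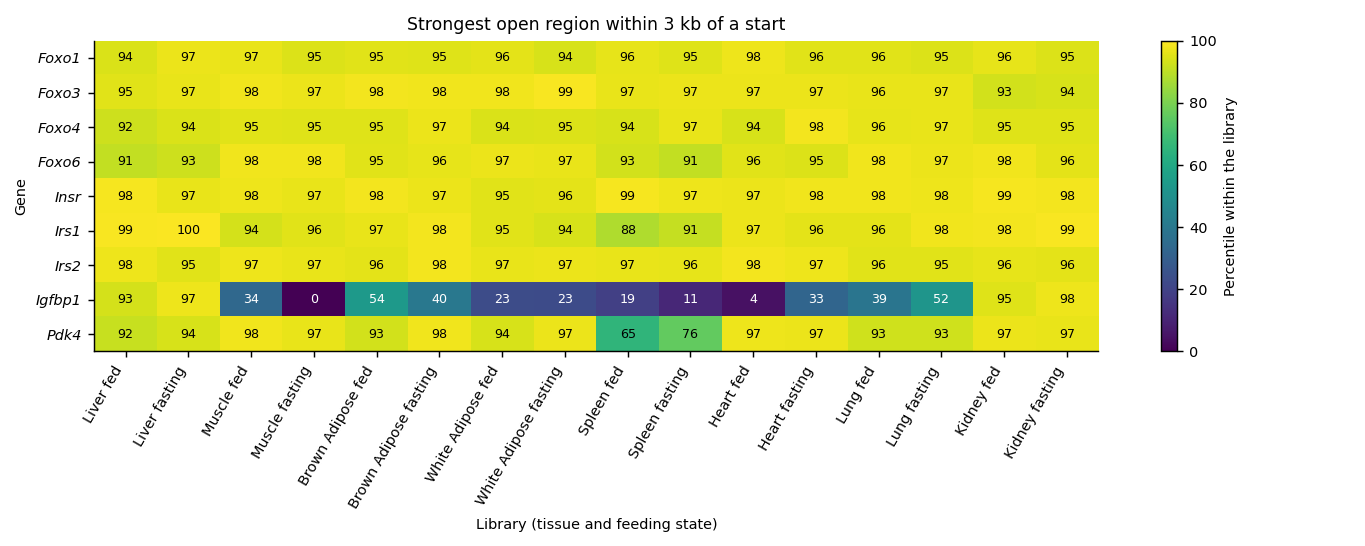
Heat map of the promoter percentile of the 9 genes (rows) in the 16 libraries (columns), from 0 (no region listed) to 100 (strongest region of the library). Igfbp1 is above 90 in the liver and kidney libraries alone, Pdk4 falls to 65 and 76 in the spleen libraries, and the other 7 genes lie at 88 or more throughout.

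Igfbp1, on chromosome 11 (chr11:7197782-7202546, plus strand), had the most restricted promoter. Its percentile was 93.4 in fed and 97.3 in fasting liver, and 95.2 and 97.5 in kidney. In the other tissues the fed and fasting values were 53.8 and 40.2 in brown adipose, 38.7 and 52.3 in lung, 23.1 and 22.8 in white adipose, 33.6 and 0 in muscle, 18.9 and 11.3 in spleen, and 4.32 and 32.7 in heart. Liver and kidney lay above the other 6 tissues but were picked from these same values, and how many genes split in such a way was not counted. The summits in liver and kidney lay 16 to 37 bp past the start, whereas both summits in white adipose and in lung lay more than 2 kb into the gene, at 2383 to 2497 bp. In liver the summit held 61 tags in fed and 192 in fasting mice, and in kidney 240 and 314. The promoter of the median gene was also stronger in the fasting liver library, by 0.95 on the log2 scale of tags over background, and differed by −0.02 in kidney. Relative to the median gene, Igfbp1 was higher in fasting by 0.70 (log2) in liver and by 0.42 in kidney, each from 1 library per state and so without a test.

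The 245 bases before the Igfbp1 start are shown because they hold the CAAAACA core, in capitals, which ended 97 bases before the start (RefSeq promoter table, GRCm38.p6, chr11:7197537-7197781, plus strand).
Igfbp1 promoter: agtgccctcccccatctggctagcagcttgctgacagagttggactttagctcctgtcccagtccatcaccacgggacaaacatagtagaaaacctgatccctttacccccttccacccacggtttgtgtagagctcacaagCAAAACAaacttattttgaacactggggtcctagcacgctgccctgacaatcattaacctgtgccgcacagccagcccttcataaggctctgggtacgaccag
The core was found on either strand within 250 bases upstream in 5.56% of 32851 RefSeq promoters, and among the 6 members in that table in Igfbp1, Irs1 and Irs2. It lay outside the window of 100 bases either side of the strongest Igfbp1 summit. A match is a description of the letters and not evidence of binding.

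Further open regions of the Igfbp1 locus were found in liver. One 10.1 kb upstream, within 3 kb of the start of Gm11985, reached 94.3 and 91.3 in fed and fasting liver and was otherwise listed at 56.3 in fasting kidney alone. One 3.0 kb upstream reached 91.8 and 92.8 in liver and was listed in no other library. One 4.8 kb upstream was at 89.3 and 94.6 in liver, 83.6 and 92.3 in white adipose and 71.1 and 15.2 in brown adipose, with no region in the other 5 tissues. In kidney, whose promoter was as open, neither the 3.0 kb nor the 4.8 kb site was listed. A region 12.8 kb past the start, beyond the end of Igfbp1, was by contrast listed in 14 libraries, at 64.9 to 95.5, with none in spleen. The locus also overlaps Igfbp3, and to which gene this region belongs was not tested.

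Pdk4, on chromosome 6 (chr6:5483351-5496309, minus strand), was open in 7 of the 8 tissues. Its promoter percentile in fed and fasting mice was 97.8 and 96.8 in muscle, 97.3 and 97.1 in heart, and 97.2 and 96.7 in kidney. White adipose followed with 94.1 and 97.2, brown adipose with 93.2 and 97.8, liver with 91.6 and 93.9 and lung with 92.7 and 92.7. Spleen was apart, at 65.3 and 75.8. In that order, from muscle to lung, neighbours differed in their means by less than the larger gap between their fed and fasting libraries.

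The Pdk4 promoter is shown because its tags differed most between feeding states among the 8 genes compared (219 bases before the first annotated exon, chr6:5496310-5496528, minus strand). It held neither core, so no letter is in capitals.
Pdk4 promoter: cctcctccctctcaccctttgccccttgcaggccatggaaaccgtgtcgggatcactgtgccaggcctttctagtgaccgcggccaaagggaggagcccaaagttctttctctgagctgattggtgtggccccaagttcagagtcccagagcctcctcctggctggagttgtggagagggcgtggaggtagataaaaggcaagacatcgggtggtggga

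**Figure D2:**
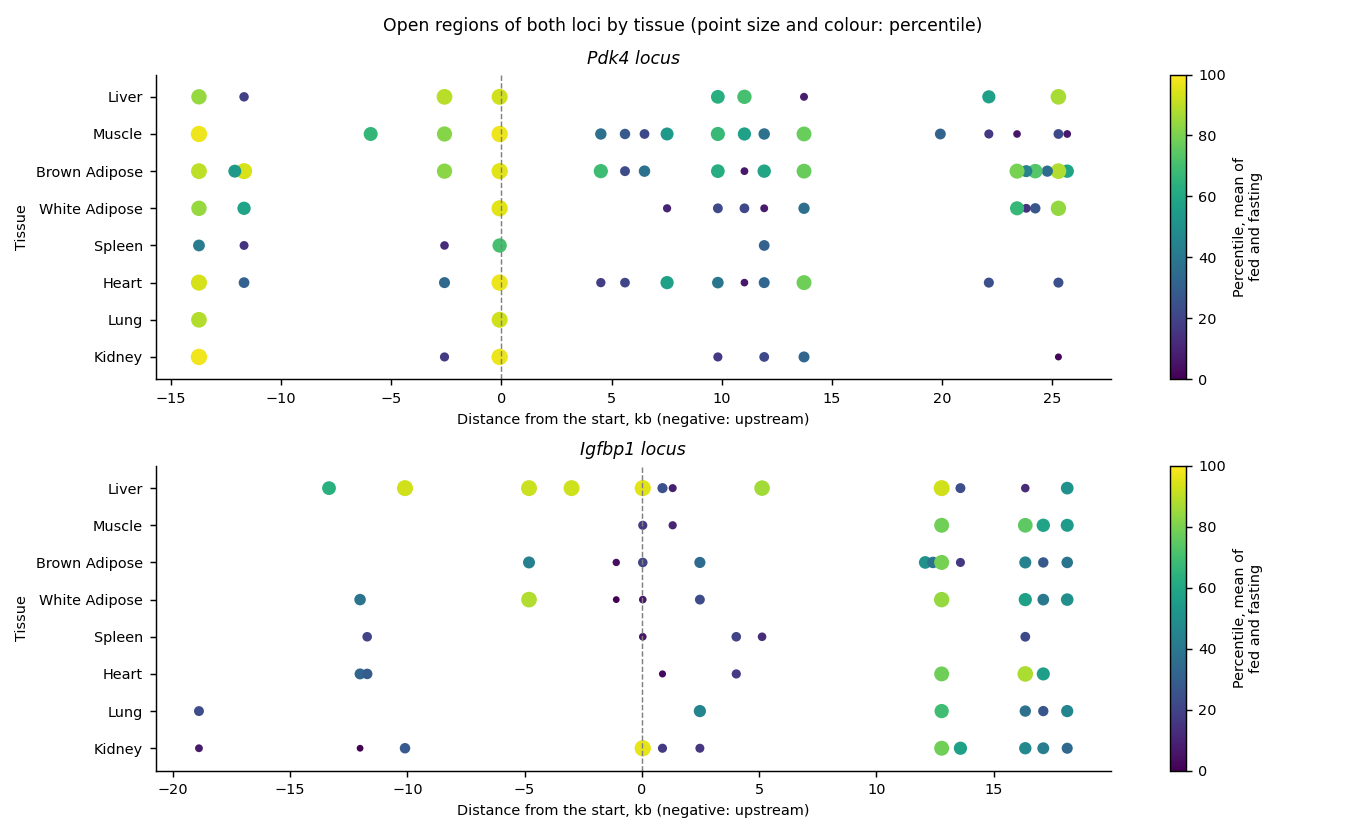
Open regions of the Pdk4 and Igfbp1 loci by tissue, placed by distance of the summit from the start in kb, with the percentile (mean of fed and fasting libraries) as colour and size. At Pdk4 the start and a site 13.7 kb upstream are listed in all 8 tissues and the sites within the gene have lower values, whereas at Igfbp1 the start is strong in liver and kidney, the sites 3.0 and 10.1 kb upstream in liver, and that 4.8 kb upstream in liver and white adipose.

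Irs1, the adaptor gene on chromosome 1 (chr1:82233101-82291416, minus strand), had its strongest promoters in liver (99.1 fed, 99.5 fasting) and kidney (98.2 and 98.9) and its weakest in spleen (88.04 and 91.3). Insr stayed between 95.4 and 98.8 and Irs2 between 95.3 and 98.3. The FOXO genes had tissue differences of a few points. Foxo6 was lowest in liver (90.9 and 92.5) and spleen (93.3 and 90.8) and highest in muscle (97.8 and 97.7), Foxo3 was highest in white adipose (98.0 and 99.1) and lowest in kidney (93.1 and 93.9), and Foxo4 ranged from 92.4 to 98.2. All values of Insr, Irs2 and the FOXO genes lay above percentile 90.

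At Foxo1 and Irs2 the position of the strongest promoter region, more than its rank, differed between tissues. The position also differed at Foxo3, where the strongest summit lay 5 and 87 bp past the start in fed and fasting liver. In muscle, heart, kidney and both adipose tissues the Foxo3 summit lay between −1124 and −1080 bp, upstream of the start. At Foxo1 (chr3:52268336-52353221, plus strand) the strongest summit lay between 1807 and 1825 bp past the start, in an intron, in both libraries of liver, spleen and kidney and in fasting heart. It lay within 71 bp of the start in the other 9 libraries. At Irs2 (chr8:10984681-11008458, minus strand) the strongest summit lay 1237 to 1328 bp past the start, in coding sequence, in liver, spleen, heart and kidney, and between −683 and −461 bp, upstream of the start, in muscle, lung and both adipose tissues. At Irs2 fed and fasting libraries lay on the same side in each tissue. The region in the Irs2 coding exon was lower in fasting than in fed mice in 7 of 8 tissues (mean −1.79 points, exact sign-flip test, unadjusted p = 0.0313). It is named for that p, which 1.46% of all regions had under 0.05, and no region passed adjustment.

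Likeness of tissue values between fed and fasting libraries was tested per gene by an exact permutation test over their 40320 pairings. It was one-sided, with Benjamini-Hochberg adjustment over all 21938 genes. The statistic was the sum over tissues of fed times fasting value. It does not compare ranks, so 1 outlying tissue can carry a call. A call by this test is named tissue order below. By this exact test 5 of the 9 genes passed an adjusted p of 0.05, where 37.3% of all genes did: Foxo3 (adjusted p = 0.0104), Irs1 (0.0187), Igfbp1 (0.0357), Foxo6 (0.036) and Pdk4 (0.0415). Foxo1 did not pass over 3 kb (r = −0.45 between fed and fasting over 8 tissues) and passed for summits within 1 kb (r = 0.94, exact test, adjusted p = 0.0136). Within 1 kb Irs2 also passed (exact test, adjusted p = 0.0319), while Foxo3 (0.107) and Igfbp1 (0.0767) did not. The count was 0 when fold enrichment set the ranking, where 16.3% of all genes passed. It fell to 1 without spleen, 2 without white adipose, lung or kidney and 3 without liver, muscle or heart, and was 4 without brown adipose, with 22.3% to 29.9% of all genes passing. For Pdk4 r was 0.98 over 8 tissues and 0.58 without spleen (exact pairing test, adjusted p = 0.192).

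No promoter percentile passed the adjusted test for a difference between fasting and fed mice. By the exact sign-flip test over 8 tissues (two-sided, smallest possible p 0.00781), 0 of the 9 genes and 0% of the 21938 passed after adjustment. At an unadjusted p under 0.05, 1 of 9 did, against 4.18% of all genes. This was Foxo4, at 94.6 on average in fed and 96.0 in fasting libraries (mean difference 1.38 points, SD 1.57, higher in 6 of 8 tissues, exact p = 0.0469), with its largest rise, 4.30 points, in heart. Its unadjusted p stayed under 0.05 without muscle or kidney and not without any of the other 6 tissues. Pdk4 had the largest mean difference, 2.34 points (SD 3.84, exact p = 0.117), of which spleen gave most: without spleen the mean was 1.18. Igfbp1 differed by −0.895 points with an SD of 18.4 and moved up in 4 tissues and down in 4.

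Percentiles are compressed among strong sites, so the tags under each promoter summit were also compared, divided by the background of the library and centred on the median gene of the library. This measure was chosen after the data had been seen. It covered the 13446 genes with a region in all 16 libraries, hence 8 of the 9 and not Igfbp1. Pdk4 and Foxo3 were higher in fasting in all 8 tissues and Foxo6 was lower in all 8, each at the smallest p the exact sign-flip test allows (0.00781). By this exact test 3 of 8 genes had an unadjusted p under 0.05, against 6.43% of all genes tested, and none passed adjustment over all genes (adjusted p = 0.641). At Foxo3 the strongest summits of the 2 feeding states were at different sites in spleen (−37 bp fed, −1099 bp fasting) and lung (−1114 and 5 bp).

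For Pdk4 the fasting minus fed difference on the log2 scale was 0.96 in white adipose, 0.56 in heart, 0.45 in brown adipose, 0.36 in muscle, 0.32 in spleen, 0.30 in liver, and 0.29 in both lung and kidney. The mean was 0.44 (SD 0.23), or 1.36-fold, and in white adipose 0.491% of genes rose as much or more. The Foxo3 differences ran from 0.02 (brown adipose) to 0.26 (liver), with a mean of 0.12. Those of Foxo6 ran from −0.06 (brown adipose) to −0.41 (spleen), with a mean of −0.20. All 8 tissues were higher in 0.521% of the genes and lower in 0.588%. For Foxo6 and Pdk4 the mean difference in percentile ranked by fold enrichment had the opposite sign (1.39 and −0.11 points), so the direction depended on the measure. The fold enrichment of the Pdk4 promoter was lower in fasting in muscle (9.52 fed, 5.76 fasting), heart, kidney, lung and white adipose. It was higher in fasting in liver, brown adipose (4.95 fed, 5.97 fasting) and spleen.

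**Figure D3:**
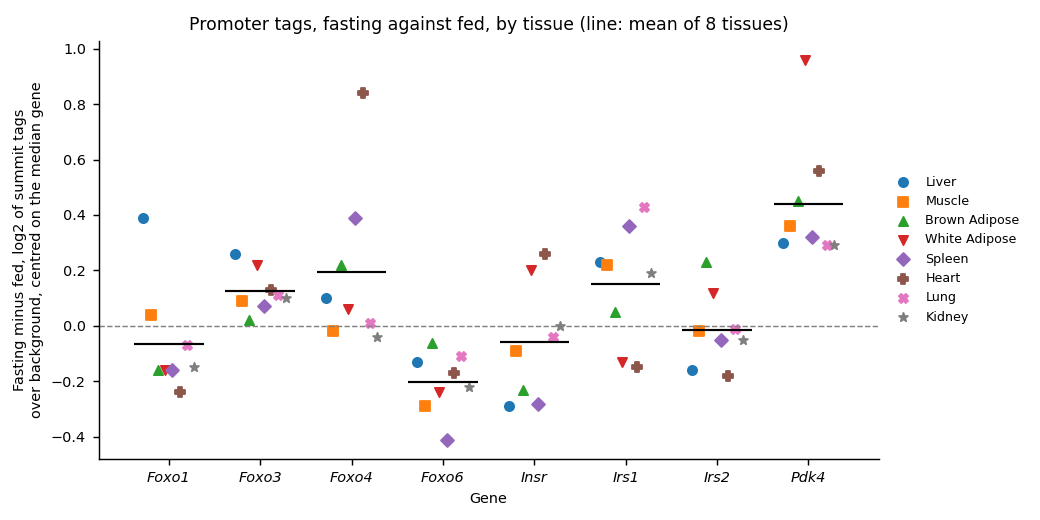
Fasting minus fed difference in promoter summit tags over background (log2, centred on the median gene of each library) for 8 genes, 1 symbol per tissue, with the mean of the 8 tissues as a line. All 8 points lie above 0 for Pdk4 (0.29 to 0.96) and Foxo3 (0.02 to 0.26), and below 0 for Foxo6.

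The loci differed widely in the number of regions with q under 0.01. In fasting muscle, fed brown adipose, fed white adipose, fasting spleen and both libraries of lung and kidney the list ended before that threshold. The furthest was fed brown adipose, at a −log10 q of 5.26. Counts were thus not at the same threshold in all libraries, whereas a q under 1e-06 was reached by every list. Per library the count ran from 23 to 80 at Foxo1, 19 to 50 at Foxo3, 20 to 46 at Insr, 10 to 43 at Irs1, 11 to 27 at Irs2, 5 to 20 at Foxo6, 2 to 27 at Pdk4, 2 to 12 at Igfbp1 and 3 to 10 at Foxo4. Per 10 kb the median was 3.29 at Irs2, 3.28 at Foxo1, 2.74 at Foxo3, between 1.53 and 2.08 at Pdk4, Foxo6, Insr, Igfbp1 and Irs1, and 0.863 at Foxo4, against 1.06 over all protein-coding genes. Foxo4, Igfbp1 and Irs1 share their loci with 4, 3 and 1 other protein-coding genes.

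Fasting muscle stood out. At Foxo1 the count was 30 in fed and 80 in fasting muscle, while the other 14 libraries lay between 23 and 61. Only 0.0684% of all genes gained as many regions or more in muscle, a share not adjusted for locus length, which is 125 kb at Foxo1. Fasting muscle was also the highest library for Foxo3 (50, with 32 in fed muscle), Insr (46 and 31), Irs1 (43 and 33) and Pdk4 (27 and 14). At the other 4 loci the fasting muscle count was the lower, with 3 against 5 at Foxo4, 16 against 20 at Foxo6, 25 against 27 at Irs2 and 5 against 7 at Igfbp1. The background was 6.39 tags in fed and 10.6 in fasting muscle, and the count was repeated under settings that treat depth differently. After scaling to the depth of the shallowest library Foxo1 held 8 regions in fed and 20 in fasting muscle (0.0547% of genes gained as many). At q under 1e-06 it held 13 and 46 (0.123%), and among the 50000 strongest regions 7 and 8 (17.1%). The excess of fasting muscle was thus present at the stricter q and after scaling, and was 1 region among the strongest.

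**Figure D4:**
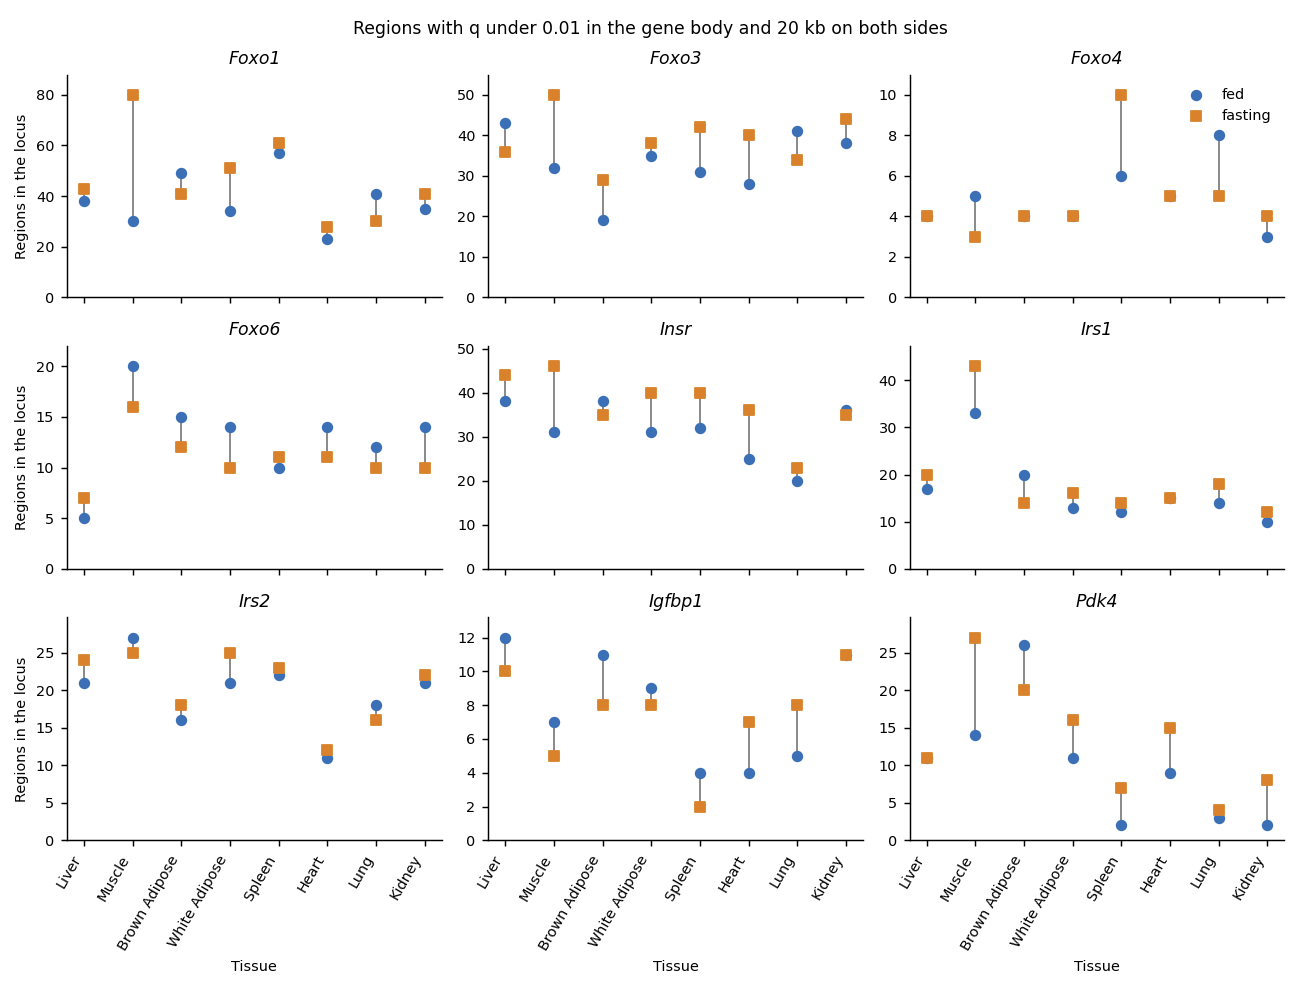
Number of regions with q under 0.01 in each of the 9 loci by tissue, in fed (circles) and fasting (squares) libraries, 1 library per point. In some libraries the list ended before that threshold. The fasting muscle library is the highest of all at Foxo1 (80), Foxo3 (50), Insr (46), Irs1 (43) and Pdk4 (27).

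Over the 8 tissues, 0 of 9 loci and 0% of all genes passed the adjusted exact sign-flip test for a difference in region number. Unadjusted, Insr passed (31.4 regions on average in fed and 37.4 in fasting mice, higher in 6 of 8 tissues, exact p = 0.0469), against 2.72% of genes. It did so without brown adipose or kidney and not without any of the other 6 tissues. The mean difference at Insr was 6.00 regions, against 0 at q under 1e-06 (exact p = 1) and 0.50 after scaling of depth (exact p = 0.797). Without muscle the mean difference at Foxo1 was 2.57 regions in place of 8.50. The tissue order held between feeding states for Irs2 (adjusted p = 0.0197) and Foxo6 (0.0326) in the exact pairing test, 2 of 9 where 37.3% of genes passed. Irs2 held most regions in muscle (27 and 25) and fewest in heart (11 and 12), and Foxo6 most in muscle (20 and 16) and fewest in liver (5 and 7). The count of 2 was 1 without liver, heart, lung or kidney, 3 without brown adipose and 8 after scaling of depth. Of all genes 14.4% to 29.7% passed when a tissue was left out and 52.1% after scaling.

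Regions of the 16 libraries that overlapped were merged, which gave 394 regions found in at least 2 libraries within the 9 loci, of 379535 in the genome. Of these 24 were in all 16 libraries (6.09%, against 6.16% genome-wide), and 64 (16.2%, against 23.6% genome-wide) were in both libraries of 1 tissue and nowhere else. The most such private regions were in muscle (16 of 394, with 15200 of 379535 genome-wide) and kidney (13 of 394, with 22768 of 379535). The muscle share was thus near that of all regions and the kidney share below it. Of the 51 regions at Irs1, 7 were private to muscle, and of the 82 at Insr, 6 were private to kidney. Neither was tested. A tissue pattern shared by fed and fasting libraries was called for 27 of the 394 (6.85%, against 6.56% of all regions; exact pairing test, adjusted). A region found in 1 tissue alone cannot reach a small p in that test.

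The called regions numbered 5 at Foxo3 and at Foxo6, 4 at Foxo1, Insr and Irs2, 2 at Irs1 and Pdk4, 1 at Igfbp1 and 0 at Foxo4. In an intron of Foxo6 a site 9.6 kb past the start was at 96.3 and 96.5 in brown adipose, 98.0 and 96.1 in muscle and 94.9 and 84.2 in heart, and was listed in neither liver library. At Foxo1 a site 10.3 kb upstream was at 19.1 and 35.2 in liver, at 54.0 and 61.2 in kidney, and at 72.7 to 88.1 in muscle, both adipose tissues, spleen, heart and lung. At Foxo3 an intronic site 74.0 kb past the start was at 87.9 and 97.3 in liver and 79.4 and 91.0 in kidney, and otherwise listed in white adipose alone. Liver was thus the lowest tissue at the Foxo1 and Foxo6 sites and the highest at the Foxo3 site.

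At Irs2 sites downstream of the gene differed between tissues, while its promoter was not called. A site 37.8 kb past the start was at 94.1 and 93.5 in muscle and 93.7 and 93.5 in spleen, and at 0 in both liver libraries. A site 34.0 kb past the start, which was not called, was by contrast at 93.4 and 97.7 in liver, at 47.2 and 49.5 in lung and listed nowhere else. At Pdk4 a site 11.7 kb upstream was at 92.1 and 95.8 in brown adipose, with white adipose next at 37.4 and 78.5. Within Insr a site 42.1 kb past the start exceeded 90 in both libraries of muscle, brown adipose and heart and was at 35.4 and 0 in spleen.

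No single region passed the adjusted test for fasting (0 of 394, 0% of all regions). At an unadjusted p under 0.05 there were 14 (13 higher in fasting and 1 lower), or 3.55%, against 1.46% of all regions. Of the 394, 5 were higher in fasting in all 8 tissues (1.27%), where 0.106% of all regions were, and 0 were lower in all 8. These sites were picked out for that pattern, after their values were seen. They lay at Foxo1 (2), Foxo3 (2) and Pdk4 (1). The 5 were higher in all 8 tissues after scaling of depth too, but in 5 to 7 of 8 when ranked by fold enrichment.

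The Pdk4 site lay 13.7 kb upstream (chr6:5508896-5510648). Its fed and fasting percentiles were 97.5 and 98.1 in kidney, 96.7 and 97.9 in muscle, 92.2 and 95.2 in heart, 86.5 and 93.4 in brown adipose, 83.9 and 92.9 in lung, 78.0 and 90.1 in liver, 77.5 and 91.0 in white adipose, and 0 and 82.5 in spleen. The mean difference was 16.1 points, and 6.61 without spleen, where no region was listed in the fed library. The tissue order was also called (exact pairing test, adjusted p = 0.0266), with kidney and muscle highest.

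At Foxo3 an intronic site 8.4 kb past the start was higher in fasting by 3.55 to 28.5 points (mean 13.8). It was strongest in liver (86.1 and 89.8) and muscle (85.4 and 89.0) and was listed in white adipose, spleen and lung in the fasting libraries alone. The fed list ended at a higher −log10 q than the fasting list in white adipose (4.22 and 1.48) and lung (3.26 and 2.88), not in spleen (1.90 and 2.04). A second intronic site, 25.4 kb past the start, was in all 16 libraries and was higher by 0.38 to 6.11 points. At Foxo1 an intronic site 54.2 kb past the start was in all 16 libraries, at 92.1 and 95.1 in liver, its highest tissue, and was higher by 0.87 to 15.04 points (mean 5.52). Another, 75.4 kb past the start, was higher by 1.45 to 46.4 points, most in heart, and by 3.05 on average without heart.

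**Figure D5:**
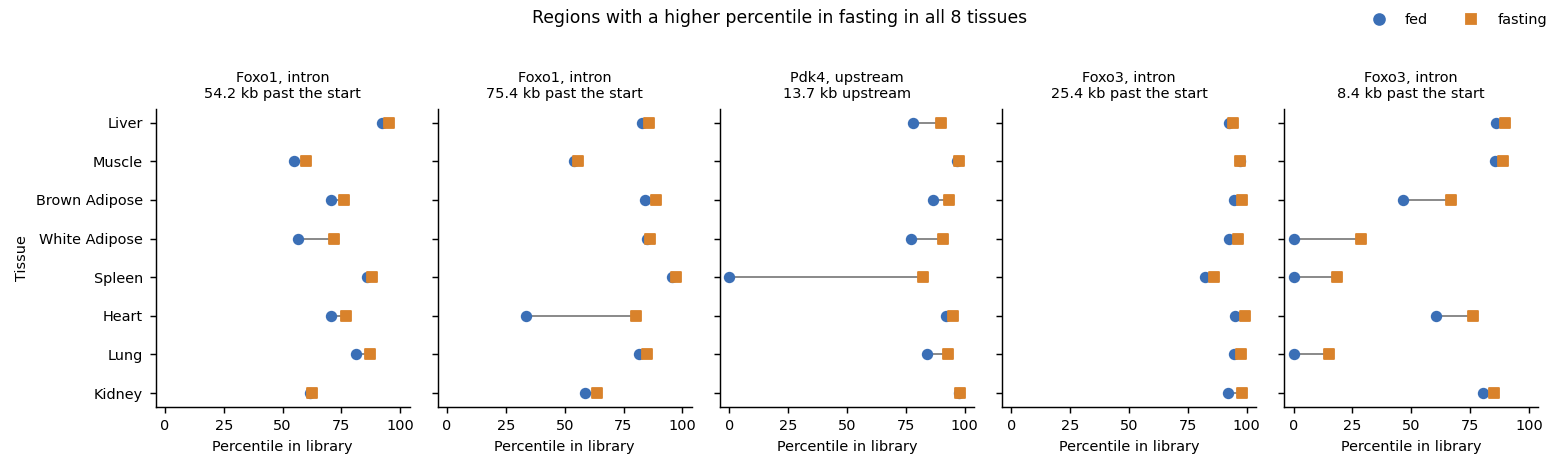
Percentile in fed (circles) and fasting (squares) libraries of the 5 regions of the 9 loci that were higher in fasting in all 8 tissues, 1 row per tissue. The gaps are widest for the Pdk4 site in spleen (0 to 82.5) and the Foxo1 site 75.4 kb past the start in heart.

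Windows of 100 bases either side of 3 of these summits are shown, with the 11 bases centred on the summit in capitals, because these sites were higher in fasting in all 8 tissues and were called for tissue order (exact pairing test, adjusted p = 0.0266 at Pdk4 and Foxo3 and 0.0308 at Foxo1; GRCm38.p6, strand of the gene: chr6:5509924-5510124 minus, chr10:42268283-42268483 minus and chr3:52322453-52322653 plus). None of the 3 windows held either core.
Pdk4 upstream region: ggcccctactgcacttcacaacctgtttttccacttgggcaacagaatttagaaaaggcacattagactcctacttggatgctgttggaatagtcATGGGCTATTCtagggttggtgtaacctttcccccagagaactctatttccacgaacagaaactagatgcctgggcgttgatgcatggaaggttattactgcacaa
Foxo3 intronic region: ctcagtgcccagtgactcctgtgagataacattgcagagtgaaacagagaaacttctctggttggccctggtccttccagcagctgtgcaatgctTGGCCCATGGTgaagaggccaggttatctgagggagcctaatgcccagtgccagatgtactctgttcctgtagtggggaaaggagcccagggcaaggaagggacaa
Foxo1 intronic region: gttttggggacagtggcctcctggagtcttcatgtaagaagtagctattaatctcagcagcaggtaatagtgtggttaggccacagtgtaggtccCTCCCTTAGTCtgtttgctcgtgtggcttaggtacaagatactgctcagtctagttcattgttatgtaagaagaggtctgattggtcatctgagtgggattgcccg

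At Pdk4 a further site just past the end of the gene, 13.7 kb from the start (chr6:5480777-5483001), was higher in fasting in each of the 6 tissues that had it. The exact sign-flip test gave an unadjusted p of 0.0313, which 6 differences of the same sign always give. Its fed and fasting values were 58.1 and 97.9 in heart, 63.2 and 90.6 in brown adipose, and 66.1 and 88.1 in muscle. No region was listed in the fed libraries of white adipose, kidney and liver, whose fasting values were 72.1, 66.2 and 15.5. In these tissues the fed list ended at a higher −log10 q (4.22, 3.20 and 1.72) than the fasting list (1.48, 2.56 and 1.23). The site was listed in neither spleen nor lung. Downstream of Irs2 a site 30.0 kb past the start was higher in fasting in 6 of 8 tissues (mean difference 11.6 points, exact p = 0.0313), most in liver, at 18.4 and 76.4. In Insr an intronic site 19.2 kb past the start was found in the fasting library alone in 3 tissues (mean difference 15.8 points, exact p = 0.0313). The p-values of these sites are unadjusted, 1.46% of all regions had one under 0.05, and no region passed adjustment.

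Sites present in 1 feeding state alone in at least 3 tissues numbered 35 of 394 (8.88%, against 3.22% of all regions), 26 of them in fasting and 9 in fed mice, where all regions split into 6342 and 5937. They lay at Foxo3 (12), Foxo1 (10), Insr (7), Pdk4 (3), Irs2 (2) and Irs1 (1). At q under 1e-06 there were 0, against 0.207% of regions genome-wide. Depth was larger in fasting in 4 of the 8 tissues. The fed list ended at a higher −log10 q in brown adipose (5.26, with 0.649 in fasting), white adipose, lung, kidney and liver. In muscle (2.80, with 1.58 in fed), spleen and heart the fasting list did so. A weak site can be missing from a list that ended earlier. The part of depth and of the list ends in these counts was not tested.

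The FOXO core GTAAACA was searched on both strands within 100 bases either side of each summit. It was found at the strongest promoter summit of Foxo4 and Insr, and of 1.75% of 19718 promoters. The core CAAAACA was found at Irs1 and Irs2, and in 2.37%. Of the 394 locus regions 16 held GTAAACA (4.06%, against 3.33% of all regions) and 27 held CAAAACA (6.85%, against 5.25%). The regions with GTAAACA included an Insr intronic site 23.0 kb past the start, at 90.4 and 92.4 in liver and 1.95 and 0 in lung, and an Irs1 intronic site 16.9 kb past the start, with 82.0 and 84.8 in lung, 74.6 and 60.2 in heart and none in liver. Both were called for tissue order by the exact pairing test (adjusted p = 0.0412 and 0.0467).
Both windows are shown with the core, here as its reverse complement, in capitals (GRCm38.p6, minus strand, chr8:3256538-3256738 and chr1:82274464-82274664).
Insr intronic region: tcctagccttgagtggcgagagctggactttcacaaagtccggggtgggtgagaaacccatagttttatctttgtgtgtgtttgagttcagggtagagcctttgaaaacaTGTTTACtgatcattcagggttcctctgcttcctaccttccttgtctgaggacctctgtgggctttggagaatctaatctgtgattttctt
Irs1 intronic region: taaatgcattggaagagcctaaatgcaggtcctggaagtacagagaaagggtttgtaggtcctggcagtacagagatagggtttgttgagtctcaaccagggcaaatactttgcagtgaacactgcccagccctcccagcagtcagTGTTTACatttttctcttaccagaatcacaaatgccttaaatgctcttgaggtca

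The tissue order of promoters was also tested for the other genes of the pathway, where 37.3% of all genes passed. From the insulin receptor to AKT, 8 of 22 genes passed the exact pairing test for tissue order, among them Irs1, Igf1r (insulin-like growth factor receptor, highest in kidney at 98.5 and lowest in liver at 88.1) and Akt2 (highest in muscle at 96.5). Downstream of AKT 8 of 17 passed, including Tbc1d4, the regulator of glucose transporter traffic, with its highest mean in kidney (99.2). Of 20 textbook FOXO targets 6 passed, including Igfbp1 and Pdk4. Pck1, of gluconeogenesis, had its highest mean in white adipose (92.6), with brown adipose (89.9 and 94.2) and liver (94.2 and 86.35) close. Its promoter was at 0 in muscle, spleen, heart and lung. Trim63, a muscle ubiquitin ligase, was highest in muscle (87.8), followed by heart (86.3 and 81.2), and at 0 in white adipose. G6pc, the last enzyme of gluconeogenesis, had its highest mean in liver (88.03) but did not pass.

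None of these lists had a gene that passed the adjusted test for fasting. At an unadjusted p under 0.05 there was 1 of the 20 FOXO targets and none in the other lists, against 4.18% of all genes. This was Trib1 (1.40 points, higher in 7 of 8 tissues, exact sign-flip test, unadjusted p = 0.0156). Of 9 paralogues of Igfbp1 and Pdk4, 5 passed for tissue order: Igfbp2, highest in liver (93.7), Igfbp4, Igfbp5, highest in muscle (89.2), Pdk1 and Pdk3. Pdk3 was highest in spleen (97.2), the tissue in which Pdk4 was lowest, and lowest in brown adipose (70.2).

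Over the 16 libraries the promoters most like Igfbp1 on other chromosomes, by Pearson correlation of the percentile, were Ppfibp2 (r = 0.95, within 95.3 to 99.95), Acmsd (0.94) and Azgp1 (0.93). Acmsd was at 92.6 and 91.7 in liver, 79.8 and 89.3 in kidney and at most 45.8 elsewhere. Most like Pdk4 were Cadm1 (0.98), Nr2f2 (0.98) and Fam19a5 (0.97), all with their lowest values in spleen. The libraries share mice and tissues, and these values are descriptions.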

How the data were processed

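The authors trimmed the ATAC-seq reads, aligned them with Bowtie2 (build GRCm38 per the labels), removed unmapped and duplicate reads and called regions with MACS2. Tags in the names of the deposited lists, read here as settings, give a shift for the transposase, a p-value of 0.01, at most 300000 rows per library and a filter taken to be that of blacklisted sites. The deposited narrowPeak rows give a fold enrichment (ratio over expected tags), −log10 p and −log10 q. Versions were not given in the sources used here. Here, rows with the same bounds were reduced to the strongest, and regions were ranked within each library. Sets used q under 0.01, or the whole list where it ended before that threshold. Summit tags and background were recovered from fold and p (tags were whole within 0.05). Tests were exact sign-flip (256 flips) and pairing tests with numpy 2.4.6 and scipy 1.17.1, with Benjamini-Hochberg adjustment over all genes or merged regions, and were tested on simulated data. Sequences came from RefSeq (GRCm38.p6, 6 of 9 promoters matched, not Foxo4, Foxo6 or Insr). The genes named were the 9 members, regions called by a test, the strongest and most tissue-varied distal regions, 1-state regions, called or widest-ranging genes of 4 pathway lists and the 3 most similar promoters; regions named for an unadjusted p or for being higher in all 8 tissues, the Igfbp1 site 3.0 kb upstream, Trib1 and G6pc were named after their values were seen. The members and lists were chosen with earlier results of these data known. Samples were grouped by the labels, 1 library per tissue and state. Alternatives were another ranking value, promoter window, region threshold, depth scaling and omission of each tissue.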

Additional observations from a re-analysis of the deposited data

Results flagged for a closer look

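The Igfbp1 promoter value moved in opposite directions between tissues, by 28.37 points up with fasting in heart and by −33.64 points in muscle. The heart summits held 13 and 18 tags and were different sites, 747 bp past the start in fed and 2904 bp in fasting mice, and muscle 20 tags in fed mice and no region in fasting. The difference between tissues was not tested, because each tissue and state had 1 library. The Foxo1 locus gained 50 regions with fasting in muscle and changed by −11 in lung, and this difference was not tested either. Background tags rose from 6.39 to 10.6 in muscle and fell from 8.92 to 7.14 in lung. After scaling to the shallowest library Foxo1 held 8 and 20 regions in fed and fasting muscle and 15 and 15 in lung, where the difference was thus 0. No group had the 4 libraries that a check for a library apart from the others needs.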

How the results depend on the processing

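Of 224 values for single genes under alternatives that kept all tissues, 178 kept their direction and side of the threshold, 11 lost and 14 gained a call, and 21 changed sign. For fasting minus fed percentile the changed values were, ranked by fold, 1.39 for Foxo6, 0.95 for Irs2 and −0.11 for Pdk4. They were 0.65 for Irs2 and 1.08 for Igfbp1 within 1000 bp, and 3.37 for Igfbp1 among the 50000 strongest. For the tissue correlation they were 0.42 for Foxo1 and −0.14 for Foxo6 by fold, 0.94 for Foxo1 within 1000 bp and −0.15 for Irs2 within q under 0.01. For the region number with fasting they were −0.50 for Foxo1, −0.62 for Foxo3 and −1.88 for Irs2 at q under 1e-06, −0.62 for Irs2 among the 50000 strongest, −0.25 for Irs1 and −0.12 for Irs2 after scaling, and −0.38 for Irs2 without flanks. For its tissue correlation they were −0.0715 for Foxo1 at q under 1e-06, −0.0851 for Foxo4 after scaling, and −0.28 for Foxo4 and for Igfbp1 without flanks. The cause was not tested. Counts of called members, with the share of all genes or regions called in the same setting, moved for promoters from 5 (37.3%) to 0 by fold (16.3%). For loci they moved from 2 (37.3%) to 0 at q under 1e-06 (4.78%), 4 with all deposited regions (33.7%), 4 among the 50000 strongest (25.7%) and 8 after scaling (52.1%). For regions they moved from 27 (6.56%) to 6 by fold (1.66%) and 85 of the 209 in at least 4 libraries (46.7%), where fewer regions were tested. Regions of 1 state went from 35 to 0 at q under 1e-06, and those with a core from 16 to 8 (GTAAACA) and 27 to 5 (CAAAACA) within 50 bases either side of the summit. With 7 tissues the pairing test has a larger smallest p, and its part in the counts that follow was not tested. Leaving out each tissue gave 1 to 4 promoters, 1 to 3 loci and 0 regions. It changed the sign for fasting at Irs2 (−0.58 to 0.0429) and Igfbp1 (−5.08 to 3.78), and for tissue correlation at Foxo1 (−0.82 to 0.61), Foxo4 (−0.22 to 0.57) and Irs2 (−0.18 to 0.55) promoters and Foxo1 (−0.17 to 0.65) and Foxo3 (−0.54 to 0.38) loci. No fasting call passed adjustment in any alternative. With 1 library per group no replicate was left out.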
